A study of Mus musculus with 12 samples.

Results

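A set of 10 genes known from hematopoietic stem cells were followed in a mouse progenitor cell line with and without the leukemia fusion TEL-AML1: Angpt1, Tek, Cd34, Ly6a, Procr, Mecom, Hlf, Mycn, Gfi1 and Erg. Members were matched by gene symbol in the array's platform table, and each gene was read from its brightest probe set, the one with the highest mean log2 intensity over 12 arrays. Of the 10 genes, 9 had a probe set among 18820 named genes. Ly6a, which encodes the surface antigen Sca-1, had no probe set under its symbol and was not analysed here. Of the 9, 7 passed the filter on dim genes and were tested among 12337 genes. Tek and Mecom did not pass it. By the RefSeq gene table, Angpt1 lies on mouse chromosome 15, Tek on 4, Cd34 on 1, Procr on 2, Mecom on 3, Hlf on 11, Mycn on 12, Gfi1 on 5 and Erg on 16.

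Hematopoietic stem cells are kept in the bone marrow by signals from their niche and by a small set of transcription factors. Angiopoietin-1, encoded by Angpt1, is a secreted ligand that activates the receptor tyrosine kinase TIE2, encoded by Tek, and this pair is known for holding stem cells in quiescence and for stabilising blood vessels. Erg, Hlf, Mecom, Gfi1 and Mycn encode nuclear factors needed for stem cell upkeep, and Cd34, Procr and Ly6a encode surface proteins by which stem and progenitor cells are sorted.

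The cells were EML1, a single multipotent line made from marrow of male BDF1 mice by infection with a retroviral vector, LRARalpha403SN. That vector carries a dominant-negative retinoic acid receptor and was present in every group. They carried either the TEL-AML1 coding sequence in the lentiviral vector pWPI or the empty pWPI. TEL-AML1, also called ETV6-RUNX1, joins the start of the ETS factor ETV6 to most of RUNX1 and is the common fusion of childhood B-cell precursor leukemia. For each vector there were 3 conditions with 2 arrays each: untreated, 5 days and 7 days of IL7 and FLT3L. The sample titles name only those cytokines, whereas the growth protocol also places the differentiating cells on OP9 bone marrow stroma, with another medium and serum, IL7 at 10 ng/ml, FLT3L at 80 ng/ml and β-mercaptoethanol. Stroma, medium, serum and cytokines therefore cannot be told apart in any comparison of treated with untreated cells. The labels do not say whether the 2 arrays of a group came from separate cultures, so each p-value measures only how far these arrays spread, and that spread may be technical.

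Each value is the deposited linear intensity of a probe set, in arbitrary units of brightness, and levels of different probe sets were not set against each other. Array medians lay between 68.1 and 72.9. Correlations of log2(intensity + 16) over the 12337 tested genes were 0.981 to 0.997 within groups and 0.950 to 0.993 between groups. All 10 hematopoietic progenitor identity markers passed the filter in these cells. Of 16 endothelial markers 11 passed the filter too, while Cdh5 (46.7 to 55.9) and Kdr (43.1 to 48.6) lay below its limit of 60.1 on every array. The endothelial markers summed to 1864 to 2158 on the TEL-AML1 arrays, against 2550 to 3340 on the empty vector arrays. A sum gives bright genes the most weight. The mean log2 value of the 16 genes was 6.57 to 6.68 with TEL-AML1 and 6.69 to 6.82 with empty vector, a small gap. Flt1, the VEGF receptor 1 and a single marker of the list, was lower in TEL-AML1 cells (-1.87 ± 0.10 in the mean, limma adjusted p = 8.67e-07). The part of endothelial markers in the members' differences was not tested. The OP9 stroma markers, 34 genes with a probe set, summed to 5149 and 11293 on day 5 and to 3272 and 5934 on day 7 in TEL-AML1 cells, against 3156 and 3384 in untreated TEL-AML1 cells. In empty vector cells the sums were 10599 and 13895 on day 5 and 3678 and 8437 on day 7, against 2845 and 2936 in untreated cells. The mouse Runx1 probe set did not pass the test between the vectors (log2 fold change 0.08 ± 0.06 SE in the mean over 3 conditions, limma adjusted p = 0.434), and that of Etv6 was higher in TEL-AML1 cells (0.20 ± 0.05, adjusted p = 0.0107). The sources used here do not say whether these probe sets read the fusion transcript.

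Promoter sequences are shown for Hlf and Gfi1, the members that differed between the vectors and had an entry in the RefSeq promoter table (build GRCm38.p6). Each is the 250 bases before an annotated gene start, 5′ to 3′ on the gene's strand, and capitals mark a match to the ETS core letters CCGGAA.
Hlf, chr11:90390918-90391167, minus strand: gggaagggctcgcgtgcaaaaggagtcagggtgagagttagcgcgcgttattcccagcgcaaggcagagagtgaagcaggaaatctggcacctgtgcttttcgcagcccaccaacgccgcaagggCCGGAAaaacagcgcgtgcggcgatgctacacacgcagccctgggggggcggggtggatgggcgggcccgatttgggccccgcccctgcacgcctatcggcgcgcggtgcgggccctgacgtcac
Gfi1, upstream start, chr5:107725806-107726055, minus strand: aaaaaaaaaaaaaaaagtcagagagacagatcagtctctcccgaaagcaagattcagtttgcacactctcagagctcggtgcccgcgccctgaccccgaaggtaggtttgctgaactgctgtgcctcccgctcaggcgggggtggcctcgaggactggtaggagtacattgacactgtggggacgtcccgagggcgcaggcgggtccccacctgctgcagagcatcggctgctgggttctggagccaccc
Gfi1, downstream start, chr5:107724344-107724593, minus strand: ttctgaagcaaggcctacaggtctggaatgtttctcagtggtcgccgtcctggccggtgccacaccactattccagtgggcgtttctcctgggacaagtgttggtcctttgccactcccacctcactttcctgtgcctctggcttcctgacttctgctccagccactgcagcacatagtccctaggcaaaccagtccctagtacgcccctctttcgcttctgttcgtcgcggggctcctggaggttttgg

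TEL-AML1 keeps the DNA-binding runt domain of RUNX1, so the letters TGTGGT and TGCGGT were searched on both strands in the 12 promoters of the 8 members with an entry. They were found in 0 of the 12, while 18.6% of 32851 promoters of the same length held either motif (14% TGTGGT, 5.1% TGCGGT). These motifs differ by 1 letter and cannot start at the same base. CCGGAA was found in 1 of the 12, in the printed orientation of the Hlf promoter, 125 bases before the start, and in 12% of all promoters. A match is a description of the letters, and its absence says only that they are not in these windows. Angpt1 and Ly6a had no entry in that table.

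Angpt1 was the member with the widest range, and it was higher in TEL-AML1 cells in all 3 conditions. In untreated cells its intensity was 194 and 210.4 with TEL-AML1, against 82.9 and 94.3 with empty vector. On day 5 it was 470.5 and 401 with TEL-AML1, against 244 and 249 with empty vector. On day 7 it was 629 and 628 with TEL-AML1, against 269 and 157 with empty vector. The arrays of the vectors did not overlap within any condition, the day 7 TEL-AML1 arrays were the brightest of all 12, and the untreated empty vector arrays were the dimmest. Over all 12 arrays the brightest value was 7.59 times the dimmest.

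On the log2(intensity + 16) scale, which understates changes of dim genes, the TEL-AML1 minus empty vector difference of Angpt1 was 1.06 ± 0.18 (SE) in untreated cells (adjusted p = 0.00455), 0.78 ± 0.18 on day 5 (adjusted p = 0.0279) and 1.54 ± 0.18 on day 7 (adjusted p = 0.000527). These p-values come from limma's moderated test with Benjamini-Hochberg adjustment over all 12337 genes, and a gene was called at an adjusted p under 0.05. Averaged over the conditions the difference was 1.13 ± 0.11, or 2.18-fold (limma adjusted p = 3.07e-05). The untreated call was lost without 1 array, untreated empty vector replicate 1 or untreated TEL-AML1 replicate 2, with a highest adjusted p of 0.0537. The day 5 call was lost without any of its 4 arrays (up to 0.140) and with the stroma level of each array as a covariate (0.67, adjusted p = 0.0598). The calls on day 7 and in the mean held under all alternatives tried.

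Angpt1 was also higher in treated than in untreated cells of both vectors. With TEL-AML1 it was 1.05 ± 0.18 higher on day 5 (limma adjusted p = 0.0183) and 1.56 ± 0.18 higher on day 7 (adjusted p = 0.000853), each against untreated cells. With empty vector it was 1.33 ± 0.18 higher on day 5 (adjusted p = 0.00244) and 1.09 ± 0.18 higher on day 7 (adjusted p = 0.00560). The 2 treated groups of a vector share their untreated arrays. The responses of the vectors to treatment did not pass the test of their difference, which was -0.28 on day 5 (95% interval -0.86 to 0.29, limma adjusted p = 0.778) and 0.48 on day 7 (-0.10 to 1.05, adjusted p = 0.629). Between day 7 and day 5 the difference within TEL-AML1 cells was 0.52 (adjusted p = 0.60). The day 5 response of TEL-AML1 cells was lost without untreated TEL-AML1 replicate 1 or 2 or day 5 replicate 1 (up to 0.186) and with the stroma covariate (0.0548), and the day 7 response of empty vector cells was lost without untreated empty vector replicate 1 (0.0507) and in a fit of the compared groups alone (0.0686).

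In a bulk culture, a change in the number of cells that make a transcript and a change of its level per cell cannot be told apart. The stroma sum and Angpt1 are therefore given side by side for each treated array. In TEL-AML1 cells on day 5, replicate 1 had a stroma sum of 11293 and an Angpt1 intensity of 470.5, and replicate 2 had 5149 and 401. On day 7, TEL-AML1 replicate 1 had a stroma sum of 3272, within the range of untreated TEL-AML1 arrays, and an Angpt1 intensity of 629, and replicate 2 had a stroma sum of 5934 and an intensity of 628. The array with the higher stroma sum thus had the higher Angpt1 value on day 5 and nearly the same value on day 7. In empty vector cells on day 5, replicate 1 had a stroma sum of 13895 and an Angpt1 intensity of 244, and replicate 2 had 10599 and 249. In those cells on day 7, replicate 1 had a stroma sum of 3678 and an Angpt1 intensity of 269, and replicate 2 had 8437 and 157. Mast cell markers moved with the vector as well, and their part in the Angpt1 difference was not tested.

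**Figure D1:**
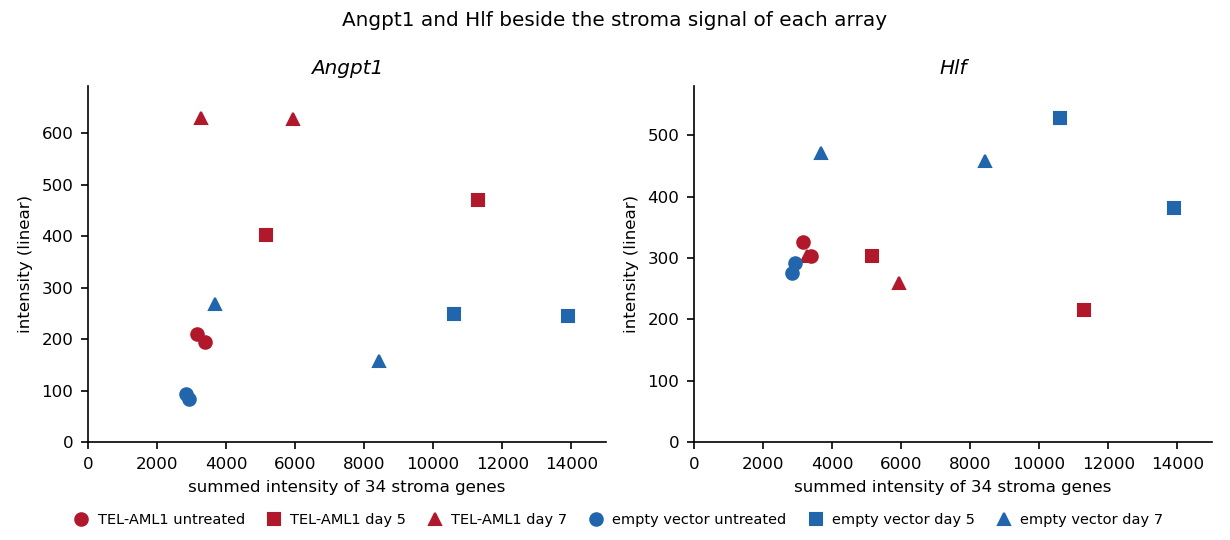
Intensity of Angpt1 (left) and Hlf (right) on the 12 arrays against the summed intensity of 34 stroma genes, 1 point per array, both axes linear. The 2 day 7 TEL-AML1 arrays have Angpt1 at 629 and 628 with stroma sums of 3272 and 5934, and the 4 treated empty vector arrays have the highest Hlf values at stroma sums from 3678 to 13895.

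Of 6 mast cell markers tested, 2 were higher in TEL-AML1 cells before treatment, 3 on day 5, 4 on day 7 and 5 in the mean over conditions, where 2.74%, 3.04%, 5.28% and 9.85% of all tested genes were higher. The other marker, Cpa3, was not called (0.02 in the mean, limma adjusted p = 0.820). Their sum over 7 genes was 6771 to 6811 in untreated cells, 6136 to 9299 on day 5 and 7741 to 10294 on day 7 with TEL-AML1. In empty vector cells it was 5128 to 5449, 4791 to 5494 and 4707 to 5980 in the same order of conditions. Hdc, which encodes histidine decarboxylase, differed by 2.12 ± 0.20 in the mean and Ms4a2, a subunit of the IgE receptor, by 2.04 ± 0.19 (limma adjusted p = 2.72e-05 and 2.7e-05). Of 5 megakaryocyte markers tested, 3 were lower in the mean, where 12.8% of all tested genes were lower, and Vwf (0.06) and Itga2b (-0.11) were not called. Gp9, a subunit of the platelet glycoprotein Ib complex, differed by -1.06 ± 0.06 (adjusted p = 8.67e-07). Their sum over 5 genes was 2210 to 2873 on the TEL-AML1 arrays, against 2698 to 3613 on the empty vector arrays. The part of either group of cells in the members' differences was not tested.

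Tek, the receptor of angiopoietin-1, gave low values on every array. Its intensity was 50.7 and 51.9 in untreated cells, 46.2 and 47.4 on day 5 and 49.3 and 45.7 on day 7 with TEL-AML1. With empty vector it was 49.6 and 49.3 in untreated cells, 47.0 and 47.5 on day 5 and 49.6 and 49.3 on day 7. Its mean of 48.6 lay under the filter limit of 60.1, so no level can be read from it. Without the filter, no comparison passed the test: the largest difference was 0.10 on the log2 scale and the lowest limma adjusted p was 0.478.

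Of the 8 genes of the angiopoietin-TIE axis, Angpt1, Angpt4, Tie1, Dok2 and Svep1 were tested, and Angpt2, Tek and Ptprb were too dim. In the mean over conditions, 2 of the 5 were higher in TEL-AML1 cells and 2 lower, in a comparison that called 22.6% of all tested genes. Tie1, the orphan receptor that forms complexes with TIE2, read 59.8 to 68.3 on the 6 TEL-AML1 arrays, against 92.9 to 122 on the 6 empty vector arrays, with no overlap. Its difference was -0.53 ± 0.08 in untreated cells, -0.60 on day 5 and -0.77 on day 7 (limma adjusted p = 0.00293, 0.00225 and 0.000373). Dok2, an adaptor that docks on activated receptor tyrosine kinases, TIE2 among them, was higher in TEL-AML1 cells on day 5 (0.47 ± 0.09, adjusted p = 0.0141) and day 7 (0.45 ± 0.09, adjusted p = 0.0128), and not called in untreated cells (0.07, adjusted p = 0.830). Svep1, a secreted matrix protein that binds TIE1, was lower in TEL-AML1 cells on day 7 (-0.37 ± 0.10, adjusted p = 0.0449). It was higher in treated than in untreated empty vector cells (0.54 and 0.43, adjusted p = 0.0106 and 0.0216 on days 5 and 7). In those contrasts 24 and 2 of 28 stroma markers were higher, beside 8.45% and 6.29% of all tested genes. Angpt4, a further ligand, differed by 0.00 ± 0.07 in the mean (adjusted p = 0.986).

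The nuclear factors are given next, beginning with Hlf, the PAR bZIP factor that marks stem cells and is fused to TCF3 in a rare leukemia. In untreated cells Hlf was 304 and 326 with TEL-AML1, against 292 and 275 with empty vector. On day 5 it was 214 and 304 with TEL-AML1, against 381 and 527 with empty vector. On day 7 it was 303 and 258 with TEL-AML1, against 471 and 457 with empty vector. The 4 treated empty vector arrays were the highest of the 12, and the 4 treated TEL-AML1 arrays lay at or under 304, within or under the span of the 4 untreated arrays.

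Hlf was therefore lower in TEL-AML1 cells under treatment and not called before it. The TEL-AML1 minus empty vector difference was 0.14 ± 0.17 in untreated cells (limma adjusted p = 0.783), -0.78 ± 0.17 on day 5 (adjusted p = 0.0190) and -0.70 ± 0.17 on day 7 (adjusted p = 0.0231), and its mean was -0.44 ± 0.10 (adjusted p = 0.00762). Against untreated cells, Hlf in treated TEL-AML1 cells differed by -0.28 on day 5 and -0.16 on day 7 (limma adjusted p = 0.469 and 0.677). In empty vector cells it was 0.63 ± 0.17 higher on day 5 and 0.68 ± 0.17 higher on day 7 (adjusted p = 0.0303 and 0.0237). The difference between the vectors' responses was -0.92 ± 0.24 on day 5 and -0.84 ± 0.24 on day 7, and did not pass the test over all genes (adjusted p = 0.565 and 0.335). With arrays blocked by replicate number inside each condition, its standard error was 0.11 and it passed on both days (adjusted p = 0.0443 and 0.0362).

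Each Hlf call at a single time rested on few arrays. Without empty vector day 5 replicate 2 or TEL-AML1 day 5 replicate 1, and in a fit of the compared groups alone, the day 5 call was lost (limma adjusted p up to 0.139). The day 7 call was lost without any of its 4 arrays (up to 0.156). The call in the mean over conditions held under all alternatives tried, with an adjusted p of at most 0.0267. With the stroma level as a covariate the vector differences were -0.98 on day 5 and -0.82 on day 7 (limma adjusted p = 0.00208 and 0.00215), and the empty vector response was 1.24 on day 5 and 0.97 on day 7 (adjusted p = 0.0280 and 0.00347). The empty vector responses were lost without untreated replicate 1 or 2, and without day 5 replicate 2 or day 7 replicate 1 (up to 0.213). Tef, a second PAR bZIP factor, was higher in TEL-AML1 cells on day 7 (0.31 ± 0.08, adjusted p = 0.0249) and in the mean (0.22, adjusted p = 0.00385), and Nfil3, which competes for the same sites, was not called (-0.02, adjusted p = 0.872). Dbp, the other gene of that list of 4, was not tested.

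Gfi1 encodes a zinc finger repressor that restrains stem cell division and shapes granulocyte and lymphocyte development. In untreated cells its intensity was 73.2 and 89.6 with TEL-AML1, against 60.7 and 58.1 with empty vector. On day 5 it was 71.2 and 76.6 with TEL-AML1, against 57.8 and 64.6 with empty vector. On day 7 it was 81.9 and 85.2 with TEL-AML1, against 59.7 and 57.5 with empty vector. All 6 TEL-AML1 arrays lay above all 6 empty vector arrays, which held for no other tested member and for 9.5% of all tested genes in either direction. The empty vector group means were 59.4, 61.2 and 58.6 over untreated, day 5 and day 7, near the filter limit of 60.1. Gfi1 thus passed the filter mainly through its TEL-AML1 arrays, and such a filter favours genes that are higher in one vector.

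The difference of Gfi1 was 0.37 ± 0.09 in untreated cells (limma adjusted p = 0.0310), 0.22 ± 0.09 on day 5 (adjusted p = 0.200) and 0.42 ± 0.09 on day 7 (adjusted p = 0.0153), so that day 5 was not called. The mean difference was 0.33 ± 0.05, or 1.26-fold (adjusted p = 0.00104), and held under all alternatives in which the gene was tested. The untreated call was lost with a pseudocount of 64 and without either untreated empty vector array or untreated TEL-AML1 replicate 2 (up to 0.310). The day 7 call was lost without TEL-AML1 day 7 replicate 1 or 2, with array weights and in a fit of the compared groups alone (up to 0.0941). Against untreated cells Gfi1 was not called in either vector, with differences from -0.11 to 0.04 and limma adjusted p-values of 0.644 or more.

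All 8 genes of the GFI1 list were tested. Kdm1a, the histone demethylase LSD1 recruited by GFI1, was higher in TEL-AML1 cells in the mean over conditions (0.21 ± 0.06, limma adjusted p = 0.0237). Gfi1b, the paralog of the erythroid and megakaryocyte lineages, did not differ between the vectors by the test (-0.02 ± 0.09 in the mean, adjusted p = 0.903). It was higher after treatment, by 0.73 on day 7 with TEL-AML1 and by 0.59 on day 5 and 0.70 on day 7 with empty vector (adjusted p = 0.0229, 0.0328 and 0.0181). Rcor1, Hdac1, Hdac2, Zbtb17 and Ehmt2, the corepressors and partners on the list, were not called in the mean, with differences from -0.10 to 0.15.

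Erg, an ETS factor required for stem cell maintenance, did not differ between the vectors by the test. Its intensity was 486 and 504 in untreated cells, 489 and 619 on day 5 and 576 and 623 on day 7 with TEL-AML1. Empty vector cells gave 456 and 490.2 in untreated cells, 526 and 612 on day 5 and 606 and 720.1 on day 7. The vectors overlapped in every condition, and the untreated empty vector arrays lay below the treated ones of that vector. How many tested genes share the latter order was not counted. The mean difference between the vectors was -0.04 ± 0.07 (95% interval -0.20 to 0.12, limma adjusted p = 0.769). Erg was higher on day 7 than in untreated empty vector cells, by 0.47 ± 0.12 (adjusted p = 0.0318). In TEL-AML1 cells the same contrast gave 0.27 ± 0.12 (adjusted p = 0.240), and the difference between these responses was -0.20 (95% interval -0.59 to 0.19, adjusted p = 0.757). With arrays paired by replicate number inside a condition, the TEL-AML1 day 7 response of Erg and its empty vector day 5 response (0.26) passed too (adjusted p = 0.0403 and 0.0325). The empty vector call on day 7 was lost without untreated replicate 1 or 2 or day 7 replicate 2, and in a fit of the compared groups alone (up to 0.163).

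Erg belongs to a group of 7 factors that bind together at stem cell enhancers, the heptad, and all 7 were tested. In the mean over conditions 2 of 7 were higher in TEL-AML1 cells and 0 lower, near the background of 22.6% of all tested genes called in either direction. Gata2, a zinc finger factor of stem and mast cells, was higher by 0.52 ± 0.12 in untreated cells and 0.61 ± 0.12 on day 7 (limma adjusted p = 0.0191 and 0.00803), and by 0.39 on day 5 without a call (adjusted p = 0.0798). Lmo2, a bridging protein of the complex, was higher in the mean alone (0.23 ± 0.06, adjusted p = 0.0263). In empty vector cells, 3 of 7 were higher on day 7 than before treatment, where 6.29% of all tested genes were higher and 15.5% called in either direction. They were Erg, Runx1 (0.49 ± 0.11, adjusted p = 0.0141) and Fli1 (0.27 ± 0.07, adjusted p = 0.0292). Runx1 was also higher on day 7 with TEL-AML1 (0.46 ± 0.11, adjusted p = 0.0274). Lyl1 and Tal1 were not called between the vectors (-0.01 and 0.03 in the mean).

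Mycn, which encodes the N-Myc factor that stem cells use beside c-Myc, passed the filter narrowly, with a mean of 60.5 against the limit of 60.1. It was 54.4 and 63.8 in untreated cells, 68.4 and 59.4 on day 5 and 89.3 and 58.7 on day 7 with TEL-AML1. With empty vector it was 52.7 and 51.8 in untreated cells, 50.4 and 61.6 on day 5 and 58.7 and 56.5 on day 7. The means of these empty vector groups were 52.2, 56.0 and 57.6, all under the limit. Mycn thus passed the filter mainly through its TEL-AML1 arrays, and such a filter favours genes that are higher in one vector. The array of TEL-AML1 day 7 replicate 1 stood apart from all others, and the vectors overlapped on day 5. No contrast was called, and the mean difference between the vectors was 0.19 ± 0.08 (limma adjusted p = 0.152). Without TEL-AML1 day 7 replicate 2 the day 7 difference became 0.52 and the mean 0.27. In that fit the outlying replicate 1, at 89.3, was the whole TEL-AML1 day 7 group, so no call is read from it.

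All 12 genes of the MYC network were tested, and in the mean over conditions 2 were higher and 2 lower in TEL-AML1 cells, where 9.85% of all tested genes were higher and 12.8% lower. Mxd1, an antagonist of MYC that pairs with MAX, was higher on day 7 (0.89 ± 0.21, limma adjusted p = 0.0234) and in the mean (0.45, adjusted p = 0.0242), and Mlx, the partner of MLXIP, in the mean (0.25, adjusted p = 0.0194). Mlxip, a glucose-sensing factor, was lower on day 7 (-0.50 ± 0.12, adjusted p = 0.0193) and in the mean (-0.42, adjusted p = 0.000992), and Mxd3 in the mean (-0.25, adjusted p = 0.0113). Mxd4, a further MAX partner, was higher after treatment in all 4 contrasts with untreated cells, by 0.46 and 0.56 with TEL-AML1 and by 0.52 and 0.40 with empty vector on days 5 and 7. Mxi1 was higher on day 7 with TEL-AML1 (0.42) and on both days with empty vector (0.44 each). Myc itself differed by 0.12 ± 0.07 between the vectors (adjusted p = 0.259).

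Mecom, the zinc finger factor EVI1 needed for long-term stem cells, gave low values on both of its probe sets. The probe set used read 57.9 and 54.9 in untreated cells, 60.9 and 58.6 on day 5 and 58.1 and 55.0 on day 7 with TEL-AML1. With empty vector it read 53.6 and 60.8, 56.9 and 67.7, and 61.0 and 57.7 in the same conditions. The vectors overlapped in every condition. The other probe set averaged 47.5, 54.8 and 51.8 with TEL-AML1 and 46.2, 61.2 and 56.6 with empty vector over untreated, day 5 and day 7. The mean of the probe set used, 58.6, lay under the filter limit, and without the filter the largest difference was 0.10 and the lowest limma adjusted p was 0.582. Of 7 genes of the MECOM and PRDM list, 4 were tested, and Ctbp2, a corepressor bound by EVI1, was higher on day 5 than in untreated empty vector cells (0.37 ± 0.09, adjusted p = 0.0255). Prdm16, Ctbp1 and Prdm2 were not called between the vectors or against untreated cells, with differences from -0.09 to 0.16.

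**Figure D2:**
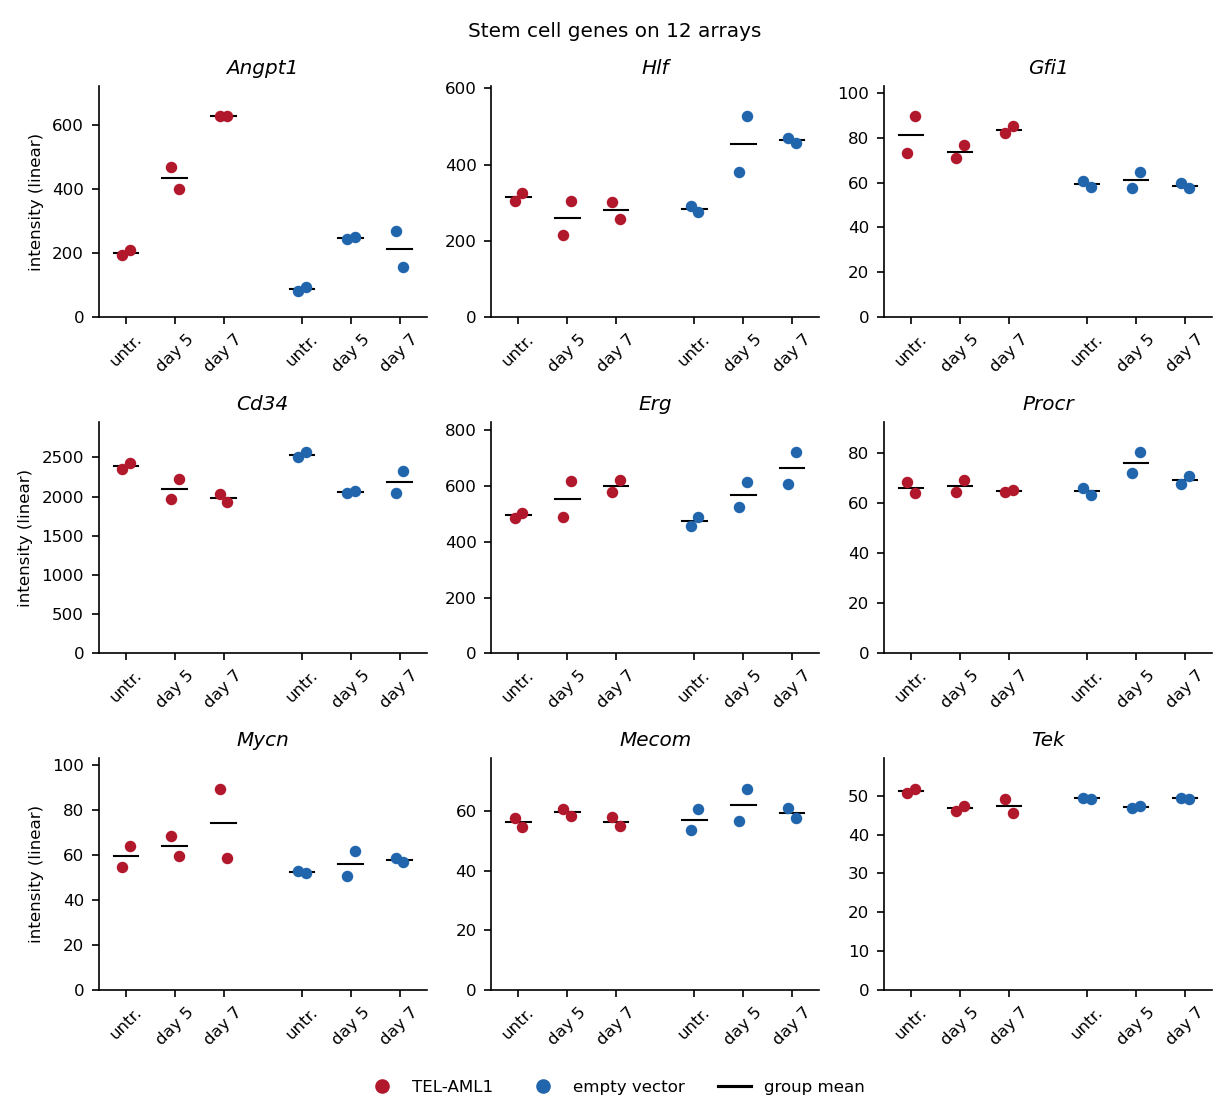
Linear intensity of the 9 members with a probe set on 12 arrays, 1 panel per gene, with a point per array and a bar at the mean of the 2 arrays of a group (TEL-AML1 in red, left, empty vector in blue, right). Gfi1 lies at 71.2 to 89.6 with TEL-AML1 and at 57.5 to 64.6 with empty vector, and Angpt1 reaches 629 on day 7 with TEL-AML1, against 269 with empty vector.

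Among the surface proteins, Cd34, a sialomucin of progenitors and endothelium, was bright on every array. Its intensity was 2358 and 2431 in untreated cells, 1975 and 2221 on day 5 and 2035 and 1927 on day 7 with TEL-AML1. The empty vector arrays read 2506 and 2565 in untreated cells, 2040.1 and 2066 on day 5 and 2041 and 2321 on day 7. All 4 untreated arrays lay above all 8 treated arrays, an order whose share over all tested genes was not counted. Cd34 was lower on day 5 than in untreated empty vector cells, by a log2 difference of -0.30 ± 0.09 (limma adjusted p = 0.0396). The other contrasts with untreated cells had the same sign without a call: -0.22 on day 7 with empty vector, and -0.19 on day 5 and -0.27 on day 7 with TEL-AML1 (adjusted p = 0.112, 0.334 and 0.0840).

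The vectors did not differ in Cd34 by the test (-0.06 ± 0.05 in the mean, 95% interval -0.17 to 0.05, limma adjusted p = 0.428). The empty vector call on day 5 was lost without any of its 4 arrays, with the stroma covariate and in a fit of the compared groups alone (up to 0.361). On day 7 the TEL-AML1 response passed with a trended, robust variance (adjusted p = 0.0444) and with array weights (0.0190), and the empty vector response with median centring (0.0449) and without day 7 replicate 2 (0.0397). The stroma sums were higher on most treated arrays, and their part in the Cd34 difference was not tested beyond that covariate. Of the related sialomucins, Podxl2 was not called between the vectors (0.02, adjusted p = 0.834), and Cd164 was lower in TEL-AML1 cells in the mean (-0.18 ± 0.04, adjusted p = 0.00581).

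Procr encodes the endothelial protein C receptor, by which long-term stem cells are sorted. It was 68.3 and 63.95 in untreated cells, 64.5 and 69.4 on day 5 and 64.3 and 65.3 on day 7 with TEL-AML1. With empty vector it was 66.3 and 63.3 in untreated cells, 71.9 and 80.3 on day 5 and 67.6 and 70.7 on day 7. The empty vector day 5 arrays were the highest, and they were among the 3 arrays with the highest stroma sums. The third of these, TEL-AML1 day 5 replicate 1, had a stroma sum of 11293 and a Procr value of 64.5. In empty vector cells on day 5 the stroma sums were 13895 and 10599, with Procr at 71.9 and 80.3. With the stroma covariate the day 5 response of these cells was 0.24 ± 0.15 (limma adjusted p = 0.330). No contrast of Procr was called: the mean vector difference was -0.07 ± 0.04 (limma adjusted p = 0.322), and the empty vector day 5 response was 0.19 ± 0.08 (adjusted p = 0.123). In the protein C pathway 5 of 8 genes were tested, and F2rl2, a thrombin-activated receptor, was lower in TEL-AML1 cells in each condition (-0.50, -0.54 and -0.56, mean -0.53 ± 0.06, adjusted p = 0.000111). Pros1, the cofactor protein S, was higher on day 5 than in untreated empty vector cells (0.59 ± 0.14, adjusted p = 0.0187). Of the 8 Ly6 genes, Ly6d and Ly6e were tested, and Ly6e was higher on day 7 than in untreated empty vector cells (0.26 ± 0.07, adjusted p = 0.0325).

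Counted over the members, TEL-AML1 cells differed from empty vector cells in 2 of 7 genes before treatment, where 8.9% of all tested genes were called in either direction. Both, Angpt1 and Gfi1, were higher, as were 2.74% of all tested genes. On day 5 the count was 2 of 7, against 7.32% of all tested genes, with Angpt1 higher (3.04% of all genes higher) and Hlf lower (4.28% lower). On day 7 it was 3 of 7, against 11.3%, with Angpt1 and Gfi1 higher (5.28% higher) and Hlf lower (6% lower). In the mean over conditions it was those 3 of 7 again, against 22.6% (9.85% higher, 12.8% lower). The arrays of the vectors did not overlap for 5 of 7 members in untreated cells, 4 of 7 on day 5 and 6 of 7 on day 7, against 57.9%, 46.6% and 50% of all tested genes, so with 2 arrays a group a lack of overlap was common. With that replicate block, the same members were called in these comparisons, and all genes called numbered 1838 on day 5 and 2215 on day 7, against 903 and 1392 without it. The median difference of the 7 members was 0.14 before treatment, 0.03 on day 5, -0.08 on day 7 and -0.04 in the mean, beside medians of all tested genes between -0.03 and 0.00. With 7 members, the shares of called genes stand beside the background as a description. Gfi1 enters these counts after passing the filter mainly through its TEL-AML1 arrays, so its calls lend the counts no support.

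**Figure D3:**
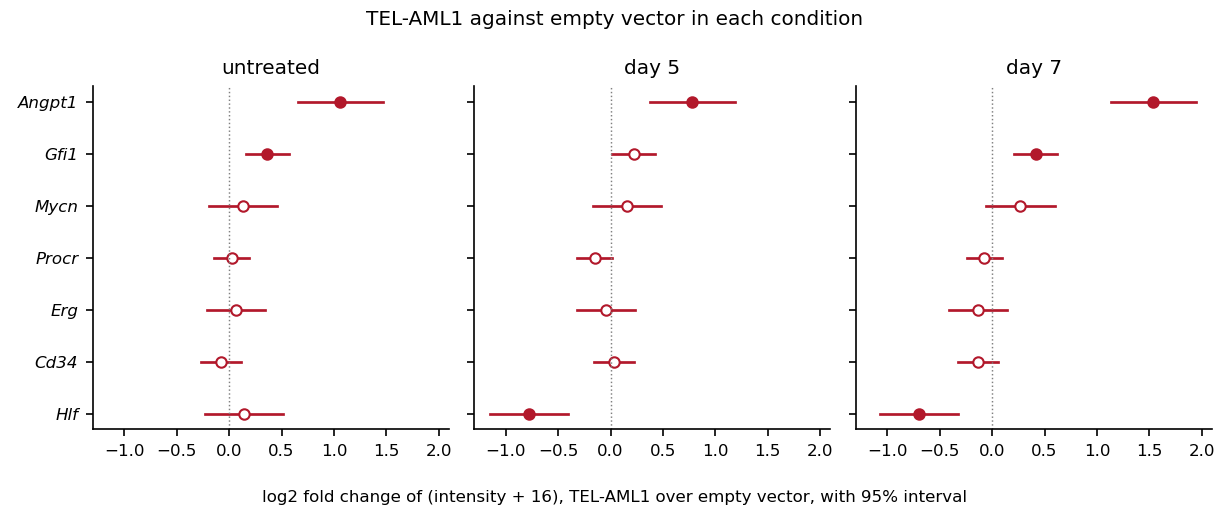
Log2 fold change of (intensity + 16), TEL-AML1 over empty vector, of the 7 tested members in untreated, day 5 and day 7 cells, with 95% intervals. Filled points are called at an adjusted p under 0.05: Angpt1 in each panel (1.06, 0.78 and 1.54), Gfi1 in untreated cells and on day 7 (0.37 and 0.42), and Hlf on day 5 and day 7 (-0.78 and -0.70).

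Against untreated cells, 1 of 7 members was called with TEL-AML1 on day 5 and 1 of 7 on day 7, Angpt1 in each, where 1.6% and 7.85% of all tested genes were called (1.17% and 4.77% higher). With empty vector 3 of 7 were called on day 5, against 15.6% of all tested genes, with Angpt1 and Hlf higher (8.45% higher) and Cd34 lower (7.16% lower). On day 7 it was 3 of 7, against 15.5%, and Angpt1, Hlf and Erg were all higher (6.29% higher). Between day 7 and day 5 limma called 0 of 7 members and 0% of all genes in either vector, with 1 of 7 at an unadjusted p under 0.05 for TEL-AML1 (Angpt1) and 0 of 7 for empty vector. In the differences between the responses it called 0 of 7 members, where 0.0324% of genes were called on day 5 and 0.0811% on day 7, and 1 of 7, Hlf, had an unadjusted p under 0.05 on each day. Stroma markers moved with treatment: 24 of 28 tested were higher on day 5 with empty vector (median 1.57) and 2 of 28 on day 7. With TEL-AML1, 0 of 28 were called on either day by limma, with medians of 1.03 and 0.27 and with 25 and 1 of 28 at an unadjusted p under 0.05.

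**Figure D4:**
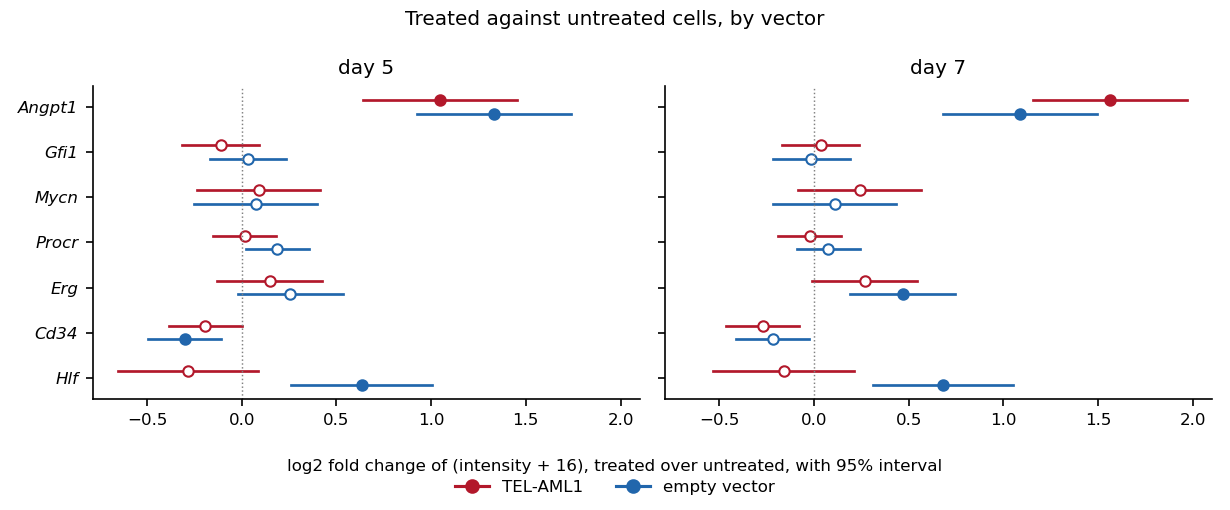
Log2 fold change of (intensity + 16), treated over untreated cells, of the 7 tested members on day 5 and day 7, with 95% intervals (TEL-AML1 in red, empty vector in blue, filled where called). Angpt1 is filled for both vectors on both days, and Hlf for empty vector alone, at 0.63 and 0.68, against -0.28 and -0.16 with TEL-AML1.

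A wider list of 30 genes enriched in stem cells, none of them a member, gave 22 tested genes. In the mean over conditions 4 were higher and 5 lower in TEL-AML1 cells, with a median of 0.02, where 9.85% of all tested genes were higher and 12.8% lower. Neo1, a netrin receptor of dormant stem cells, was lower by a wide margin, with log2 differences of -2.27 ± 0.18 in untreated cells and -1.44 ± 0.18 on each treated day (limma adjusted p = 6.25e-05, 0.000905 and 0.000621). Meis1, a homeobox cofactor of stem cell programs, was lower (-1.09, -0.60 and -0.47 in the same order), and Ctnnal1, an alpha-catulin, likewise (-0.65, -0.39 and -0.49). Gata3 was lower on day 5 and day 7 (-0.52 and -0.86). Higher genes were Cxcr4, the receptor that retains stem cells in marrow (0.62, 0.75 and 0.88), Itga6, an integrin subunit (0.58, 0.33 and 0.46), and Slamf1, or CD150, on the 2 treated days (0.76 and 0.90). Of 7 tested genes of multipotent and lymphoid-primed progenitors, Dntt, which encodes terminal transferase, was lower in TEL-AML1 cells on day 5 (-1.37 ± 0.21, adjusted p = 0.00347) and day 7 (-1.52 ± 0.21, adjusted p = 0.00125).

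**Figure D5:**
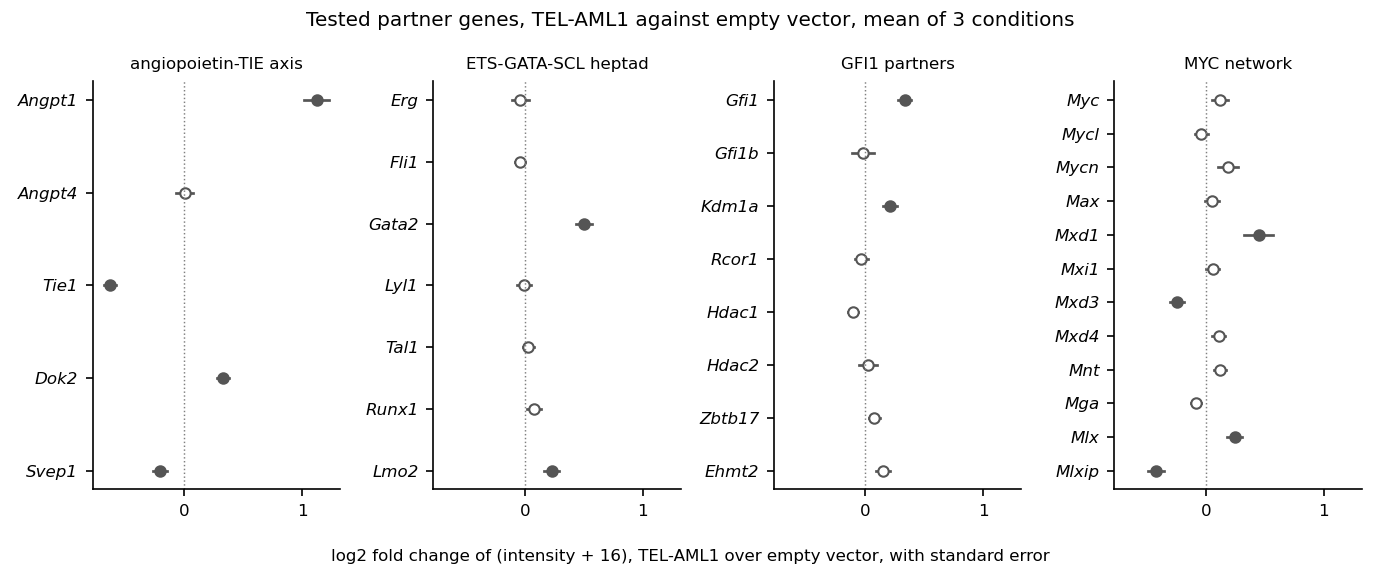
Log2 fold change of (intensity + 16), TEL-AML1 over empty vector in the mean of 3 conditions, of the tested genes of 4 lists, with standard errors and filled points where called. In the angiopoietin-TIE axis Angpt1 stands at 1.13 and Tie1 at -0.63, and in the heptad Gata2 stands at 0.50 with Erg at -0.04.

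The 3 named genes whose log2 values followed each tested member most closely over the 12 arrays were listed by Pearson's r, as a description of arrays that share their groups. Angpt1 was followed by Nfe2 (r = 0.983), Btg1 (0.979) and Treml2 (0.9755). Hlf was followed by Tbx2 (0.957), Ehf (0.926) and Dbh (0.922). Gfi1 was followed by Cd200r1 (0.954), Tbxas1 (0.944) and Lgals8 (0.944). Erg was followed by Klf10 (0.955), Zfp398 (0.932) and Sf1 (0.930), and Cd34 by Ncapg2 (0.960), Naa20 (0.951) and Ptgs2 (0.946). For Procr and Mycn the values were 0.927, 0.921 and 0.918 for Adh7, Cacna1g and Ces2e with Procr, and 0.919, 0.900 and 0.887 for Gas7, Il10ra and Tead3 with Mycn. Adh7 and Ces2e lay near the filter limit, as did Procr. Of the genes listed for Hlf, Tbx2 and Dbh were dim too, with group means of 62.0 to 75.3 and 57.7 to 80.8. Tbx2 spanned 0.29 on the log2 scale, against 1.24 for Hlf. Cd200r1, listed for Gfi1, averaged 53.2 to 61.9 in the empty vector groups. Nfe2, a factor of megakaryocytes and erythroid cells, averaged 278, 419 and 547 over untreated, day 5 and day 7 with TEL-AML1 and 170.1, 293 and 297 with empty vector. Its order of groups thus ran close to that of Angpt1, for which the means were 202, 436 and 628 with TEL-AML1 and 88.6, 247 and 213 with empty vector.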

How the data were processed

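RNA of 12 samples was measured on mouse Affymetrix gene arrays. The authors deposited 1 linear intensity per probe set and array, per the labels and the table's values. The sources used here do not say how these were background-corrected, summarised and normalized. Of 35556 probe sets, 21218 carried 1 gene symbol, 1881 several and 12457 were not listed, and only those with 1 symbol were named. No sequencing depth applies, and the number of arrays, 2 in each of 6 groups, limits the precision.

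The deposited intensities were converted to log2(intensity + 16). Each gene was read from its brightest probe set and kept where its mean intensity exceeded 60.1, the 40th percentile over the array. This kept 12337 genes. Group means were fitted to all 12 arrays with limma 3.58.1 in R 4.3.3 (lmFit, eBayes, 6 residual degrees of freedom), and 12 contrasts were each adjusted by Benjamini-Hochberg, with a threshold of 0.05. The fit was tested on simulated data. The members and gene lists were chosen with earlier results of these data known. Genes named besides the members came from lists of 8 or fewer, from up to 5 genes by adjusted p of longer lists, and from the 3 genes most like each member. Not every gene of the short lists is named. Proc and F2r of the protein C list, for example, were tested and are not described above. Cdh5 and Kdr were named in addition, as defining endothelial markers.

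Alternatives changed the pseudocount, filter, probe set rule, scaling, variance model, array weights and samples fitted, added a stroma covariate or a replicate block, and left out each array. Arrays of the same replicate number deviated together between the vectors within a condition (r = 0.433 untreated, 0.543 on day 5, 0.376 on day 7), so the numbers were taken to pair the vectors within a condition. The titles give replicate numbers without stating a pairing, so the pairing was read from these same arrays. The block adds a term per condition and leaves fewer residual degrees of freedom than the main fit. Across conditions r was -0.241 to 0.156.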

Additional observations from a re-analysis of the deposited data

Results flagged for a closer look

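The response of Hlf to treatment differed between the vectors when the replicate number was used as a block within each condition. On day 5 the TEL-AML1 response minus the empty vector response was -0.92 on the log2 scale (limma adjusted p = 0.0443, SE 0.107), and without the block the same value had an SE of 0.236 and an adjusted p of 0.565. On day 7 the difference was -0.84 (adjusted p = 0.0362 with the block, 0.335 without it). Both differences share the untreated arrays, and the pairing behind the block was read from these same arrays.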

How the results depend on the processing

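Over the 7 members and 12 contrasts there were 84 differences, of which 18 were called. Of 1497 values under the alternatives, 1399 kept direction and side of the threshold, 44 fell below it, 10 passed it, 0 turned the sign of a call, and 44 turned sign while uncalled in both. Held under every alternative run were 6 calls: Angpt1 between the vectors on day 7 and in the mean, Angpt1 on day 7 with TEL-AML1 and on day 5 with empty vector, and Hlf and Gfi1 in the mean. Of members called between the vectors, untreated cells had 2, with 1 under the 60th percentile filter, 1 with a pseudocount of 64 and 0 to 2 without 1 array. Day 5 had 2, with 1 under the stroma covariate, 1 in a fit of the compared groups alone and 0 to 1 without 1 array. Day 7 had 3, of which the Gfi1 call was lost with array weights and in a fit of the compared groups alone. The Hlf and Gfi1 calls on day 7 also depended on single arrays, as given above. The mean had 3, and none was lost where its gene was tested. Under the 60th percentile filter Gfi1 was not tested in any comparison. The day 5 response with TEL-AML1 had 1, with 0 under the stroma covariate and 0 to 1 without 1 array. The day 7 response with TEL-AML1 had 1, with 2 under a trended, robust variance, 2 with array weights and 2 with the replicate block within condition, where Erg passed (adjusted p = 0.0403). Empty vector responses had 3 on day 5, of which the Cd34 call was lost with the stroma covariate and in a fit of the compared groups alone. On day 7 they had 3, with 1 in a fit of the compared groups alone. Calls of these responses that were lost without 1 array are named with each gene above. The differences between responses had 0, and 1 on day 5 and 1 on day 7 with the replicate block within condition, where all genes called numbered 9 and 34 against 4 and 10. The paired fit also passed Erg on day 5 with empty vector (adjusted p = 0.0325). The cause of these shifts was not tested. Over all genes the calls ranged across alternatives from 477 to 2606 untreated, 327 to 1838 on day 5, 371 to 2215 on day 7 and 1993 to 3948 in the mean between the vectors, 80 to 905 and 200 to 2230 on days 5 and 7 with TEL-AML1, and 202 to 2995 and 290 to 3591 with empty vector. Probe sets near the filter limit, as for Mycn, Gfi1 and Procr, give differences that depend on the pseudocount.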
